A study of Saccharomyces cerevisiae with 16 samples.

Results

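Of 6255 probes on Agilent dual-colour yeast expression arrays, 93 stood above their 0 h level through the first hours after a change of medium and well below it at 23 h, in both strains of Saccharomyces cerevisiae that were followed. The members were chosen by these values. For each probe and strain the change was the log2 value minus the mean of 0 h replicates 1 and 2, the early mean was the mean change at 1, 5 and 8 h, and the late change was that at 23 h. A member had all 12 values these use, an early mean of at least 0.4 and a late change of at most -1 in both strains, and late changes within 1.25 of each other. The 93 members include 19 of the 1608 probes with a listed gene name, and the other 74 are unnamed here.

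The strains were the wild type (WT) and PHO84c, which the labels describe as having abundant PHO84c; Pho84 is the high-affinity phosphate transporter of the plasma membrane. The series title states the question as a delay of the response to phosphate starvation in such cells. Log-phase cells (optical density 0.5) were washed and placed at a density of 0.05 in synthetic complete medium with 0.5 mM phosphate, and were harvested at 0, 1, 5, 8 and 23 h. The titles write the phosphate level as 500 µM, which equals that of the protocol, while a treatment tag has 0.5 M; the lower value is used here. All 16 samples carry the same phosphate label, so the phosphate level, growth and time in culture cannot be told apart. The labels used here do not state the alleles, the strain background or how PHO84c was made.

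Each strain had 4 samples at 0 h (replicates 1 and 2 in Cy3, 3 and 4 in Cy5, on 2 arrays), and 1 sample, in Cy3, at 1, 5, 8 and 23 h. Separate cultures are not mentioned for the 0 h samples, so p-values measure only their spread, which may be technical. That spread was taken to hold for the single samples of the later times as well. The number of arrays limits the precision. Each strain's arrays come from scan files of their own, so strain and scan cannot be told apart, and each later time is 1 array. Each sample had values for 6125 to 6231 probes. Over all probes the SD was 0.0772 to 0.142 at 0 h, 0.325 to 0.464 at 1, 5 and 8 h, and 1.54 and 1.68 at 23 h in WT and PHO84c. The values are ratios to the strain's own 0 h samples and carry no signal level. Levels therefore could not be compared between probes or strains, and the labelled cells could not be checked by marker level. Of 14 mating-type and haploid marker genes 5 have a listed probe, and 0 of these are members. No probe is listed under PHO84.

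Budding yeast moved to fresh medium first ferments glucose and builds ribosomes, mitochondria and membranes as it grows. When the sugar runs out, the cells shift to respiring the ethanol they made, slow their growth and turn down much of the machinery for making RNA and protein. When phosphate runs short, the factor Pho4 turns on the PHO genes, among them PHO84 and the secreted phosphatases.

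The platform annotation's pairing of probes with gene names may be wrong, so a listed name stands here for the probe that carries it, and nothing is said of the gene's own RNA. Genes for cytosolic ribosomal proteins are known to move together in yeast, but the 50 probes listed under such names with all 12 values ranged from -2.995 to 3.99 in their WT change at 23 h. Their SD was 1.57 in WT and 1.71 in PHO84c, against 1.55 and 1.69 over all 5787 probes with 12 values. They were thus as scattered as probes at large, and RPL1A and RPL1B went opposite ways at 23 h. The roles below are background on the genes of those names and serve only as the order of description, and no function is assigned to the probes.

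The early height and the late depth of the members follow from the rule and are given as a description, with no test. In these bulk samples fewer cells of a type and less RNA per cell cannot be told apart. In WT the 93 changes had medians of 0.83 at 1 h (0.10 to 1.58), 0.60 at 5 h (0.22 to 1.46), 0.71 at 8 h (0.30 to 1.27) and -1.60 at 23 h (-3.70 to -1.001). In PHO84c the medians were 0.64 at 1 h (0.19 to 2.23), 0.58 at 5 h (0.02 to 1.36), 0.60 at 8 h (0.15 to 1.28) and -2.04 at 23 h (-4.89 to -1.02). The median over all probes with 12 values lay between -0.004 and 0.023 at 1, 5 and 8 h in both strains, while at 23 h it was -0.21 (WT) and -0.19 (PHO84c). Every member was above 0 at each of 1, 5 and 8 h in both strains. The rule set its limit on the mean of these same values, which made this likely, so nothing is read from it. The 0 h values of the members in the Cy5 replicates, which the rule did not use, had medians of -0.01 and 0.01 in WT and 0.003 and 0.0004 in PHO84c. They ranged from -0.27 to 0.22 in WT and from -0.21 to 0.20 in PHO84c. Each 0 h sample appears relative to the pair of its strain and dye. Medians near 0 follow from that scaling, so nothing is read from them. Averaged over both strains, the largest early means were those of the unnamed probes 6660 (1.12 in WT, 1.37 in PHO84c) and 4426 (1.24 and 1.16), and the deepest late change was that of probe 11808 (-3.70 and -4.89). At 23 h, 28 members stood at -2 or lower in WT and 52 in PHO84c. The SD of the 23 h change over all probes with 12 values was 1.55 in WT and 1.69 in PHO84c. No share over all probes is given for these counts, so nothing is read from them.

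Probes that were high early took all of 3 later courses. Of the 5787 probes with 12 values, 257 had an early mean of at least 0.4 in both strains. Of these 257, 97 (37.7%) stood at -1 or lower in both strains at 23 h, 30 (11.7%) at 1 or higher in both, and 130 (50.6%) at neither. Over all 5787 probes, 1194 (20.6%) stood at -1 or lower in both strains and 1081 (18.7%) at 1 or higher. The bound on the strain difference took out 4 of the 97, 3 of them lower in PHO84c. The fit called 93 of 93 members lower at 23 h in each strain, as their choice required, against 23.8% of all probes in WT and 27.5% in PHO84c. A call here needs a change of at least 2-fold and limma's adjusted p (Benjamini-Hochberg, over all probes tested) under 0.05. At 1, 5 and 8 h the calls for a higher level were 29, 10 and 12 members in WT (background 1.4%, 0.917% and 0.738%) and 11, 5 and 6 in PHO84c (1.63%, 0.666% and 0.359%). Nothing is read from these counts, since the same contrasts chose the members.

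The edges of the rule run through a continuous range. In 37 members the lower of both early means lay within 0.1 of the limit, and 59 probes that met the other conditions lay less than 0.1 outside it. The listed probes just inside were MDM12 (0.40 in WT), MDH3 (0.41 in WT) and SPR1 (0.42 in PHO84c), and those just outside were ENT4 (0.398 in PHO84c), DSE1 (0.393 in PHO84c) and PRP38 (0.389 in WT). For the late change, STO1 (-1.02 in PHO84c), SIT4 (-1.07 in WT) and MDH3 (-1.11 in PHO84c) were just inside. TPS1 (-0.97 in PHO84c), CWH41 (-0.94 in WT) and SOV1 (-0.93 in WT) were just outside. The strain bound left HTS1 inside (-1.20) and YTM1 outside (-1.27).

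The names of mitochondrial genes come first, with no theme read from them; of the mitochondrial lists, that for the mitochondrial ribosome held 0 members. MMM1 and MDM12 encode parts of ERMES, the complex that tethers mitochondria to the endoplasmic reticulum. The MMM1 probe read -0.12, 0.05, -0.07 and 0.06 in the 4 WT samples at 0 h, and 0.99, 0.52, 0.62 and -1.23 at 1, 5, 8 and 23 h. The PHO84c samples gave 0.05, -0.04, 0.08 and -0.07 at 0 h, then 0.72, 0.64, 0.59 and -1.14. The early values lay above all 0 h values in each strain, highest at 1 h, and the 23 h values nearly coincided.

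The MDM12 probe read -0.10, 0.05, -0.04 and 0.04 at 0 h in WT, then 0.25, 0.35, 0.52 and -2.21. In PHO84c it read -0.00, 0.00, -0.02 and 0.03 at 0 h, then 0.72, 0.54, 0.44 and -2.39. Its early values were in rising order in WT and in falling order in PHO84c, and both late values lay far below all others. Each early value is 1 array. Neither its early strain differences nor its differences of 8 h against 1 h were called, so no strain-specific course is read from this order. MDM10, which encodes another ERMES part, was not a member, with an early mean of -0.08 in WT and -0.34 in PHO84c and late changes of 0.55 and 0.82.

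FIS1 encodes the outer membrane anchor that recruits the fission GTPase Dnm1. Its probe changed by 0.69, 0.83 and 0.55 early and by -1.66 late in WT, and by 0.26, 0.54, 0.46 and -1.95 in PHO84c. Of 5 other listed probes of mitochondrial fission and fusion genes, none was a member. DNM1 stood at 0.78 and 0.56 at 23 h in WT and PHO84c, and MGM1, the inner membrane fusion GTPase, at 0.69 and 0.81. The others were lower or mixed, with UGO1 at -0.28 and -0.52 and FZO1 at -0.86 and 0.36. CAF4 stood at -1.76 in WT.

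YTA12 encodes a subunit of the m-AAA protease of the mitochondrial inner membrane. Its probe changed by 0.90, 0.44, 0.57 and -1.74 in WT and by 0.64, 0.42, 0.29 and -2.27 in PHO84c. The probe of YME1, the i-AAA protease of the same membrane, shared the late part of that course (-1.43 and -2.19) but had early means of 0.20 and 0.10. MDL2 encodes an ABC transporter of the inner membrane. Its probe read -0.12, 0.07, 0.04 and -0.02 at 0 h in WT, then 0.08, 0.67, 0.96 and -1.996. The PHO84c samples gave 0.01, -0.01, -0.09 and 0.08, then 0.68, 0.65, 0.93 and -2.46. The WT value at 1 h lay close to the 0 h values, whereas the PHO84c value at 1 h lay well above them. Each is 1 array, and the strain difference at 1 h (0.58 ± 0.235, SE) was not called.

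Of the names from carbon metabolism, GLK1 is the glucokinase and MDH3 the peroxisomal malate dehydrogenase. The GLK1 probe changed by 0.75, 0.50, 0.78 and -2.07 in WT and by 0.45, 0.35, 0.49 and -2.04 in PHO84c. Its late changes differed by 0.03 between strains. HXK1, a hexokinase, stood just under the early limit, with early means of 0.31 and 0.35, and at -1.251 and -1.68 at 23 h. MDH3 changed by 0.37, 0.45, 0.39 and -1.44 in WT and by 0.73, 0.47, 0.60 and -1.11 in PHO84c. MDH2, the cytosolic malate dehydrogenase, reached -1.69 and -1.93 at 23 h without a shared early height (early means -0.12 and 0.09).

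The names from protein synthesis and folding are HTS1, RPL1B, CCT6 and RBL2. HTS1 encodes the histidyl-tRNA synthetase. Its probe read -0.34, 0.15, -0.21 and 0.18 at 0 h in WT, then 0.95, 0.71, 0.83 and -2.46. In PHO84c it read -0.07, 0.07, -0.02 and 0.02, then 0.67, 0.53, 0.54 and -3.56. This was the lowest 23 h value of a named member, and its 0 h values in WT were the most spread of the named members.

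CCT6 encodes a subunit of TRiC, the ring-shaped chaperonin that folds actin and tubulin. Its probe read 0.04, -0.02, 0.01 and -0.00 at 0 h in WT, then 0.58, 1.13, 0.71 and -2.08. The PHO84c samples gave 0.01, -0.01, 0.01 and -0.00, then 1.35, 1.37, 0.57 and -2.50. The early peak was at 5 h in WT and spanned 1 and 5 h in PHO84c. The other listed TRiC probes took other courses. CCT7 had early means of 1.05 in WT and -0.07 in PHO84c and stood at 2.40 and 2.48 at 23 h, and TCP1 had early means of -0.61 and -0.53.

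RPL1B encodes a protein of the large ribosomal subunit. Its probe read -0.00, 0.00, -0.03 and 0.03 at 0 h in WT, then 0.68, 0.43, 0.67 and -1.44. In PHO84c it read -0.02, 0.03, 0.03 and -0.02, then 1.26, 0.91, 0.62 and -2.04. RPL1A, the near-identical copy of the gene, has a probe that at 23 h stood at 2.67 (WT) and 2.38 (PHO84c), with early means of -0.04 and 0.09. Whether either probe reads both copies was not tested. RBL2 encodes tubulin cofactor A, which holds free beta-tubulin. Its probe changed by 0.77, 1.23, 0.94 and -1.19 in WT and by 0.62, 0.72, 0.51 and -1.38 in PHO84c, while TUB1, an alpha-tubulin, stood at 1.51 and 1.69 at 23 h.

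The names of nuclear genes are STO1, TFB4, ACA1 and DNA43. STO1 encodes the large subunit of the nuclear cap-binding complex, and its probe changed by 0.36, 0.68, 0.30 and -1.24 in WT and by 0.71, 1.13, 0.42 and -1.02 in PHO84c. The highest of its early values was at 5 h in both strains. TFB4, a subunit of the general transcription factor TFIIH, changed by 1.12, 0.54, 0.55 and -1.20 in WT and by 0.64, 0.49, 0.40 and -1.50 in PHO84c. The probe of ACA1, a factor of the ATF/CREB family, changed by 0.54, 0.36, 0.44 and -2.03 in WT and by 0.56, 0.53, 0.43 and -2.34 in PHO84c, among the flattest early courses. DNA43, listed today as MCM10 and needed for DNA replication, changed by 0.52, 0.34, 0.61 and -1.11 in WT and by 0.33, 0.40, 0.61 and -1.76 in PHO84c.

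The other names come from transport, signalling and sporulation. BSD2 encodes a membrane protein that sends metal transporters to the vacuole. Its probe changed by 0.70, 0.25, 0.54 and -2.55 in WT, the lowest of the named members there, and by 0.28, 0.45, 0.72 and -2.37 in PHO84c. SMF2, one of those transporters, stood at 0.52 and 0.91 at 23 h. SIT4, a phosphatase of the PP2A kind that acts in nutrient signalling, changed by 1.04, 0.68, 0.97 and -1.07 in WT and by 0.97, 0.72, 0.86 and -1.64 in PHO84c. Its 0 h values reached from -0.24 to 0.13 in WT and from -0.17 to 0.17 in PHO84c. SPR1, a glucanase of sporulating cells, changed by 0.85, 0.65, 0.54 and -2.39 in WT and by 0.19, 0.51, 0.55 and -1.48 in PHO84c. It had the largest late difference towards a higher value in PHO84c of the members (0.90). AGP2, a plasma membrane protein that regulates carnitine and polyamine uptake, is described with the strain differences below.

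The partners named above were chosen once the members were known, so they give context and no test of a complex. Of 18 listed partner probes in 12 complexes or kinds that were not members, 16 had all 12 values and 0 had an early mean of at least 0.4 in both strains. The fit called 4 of the 18 lower at 23 h in both strains (YME1, HXK1, MDH2 and CAF4) and 3 higher in both (CCT7, TUB1 and RPL1A). CAF4 has values missing in PHO84c. Of 6102 probes tested in both strains, 20.3% were called lower in both and 18.4% higher in both.

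Of 21 lists of genes by function, none held more than 1 member. The lists cover 620 listed probes, of which 6 (0.968%) are members, against 1.18% of all named probes and 1.49% of all probes. These 6 fall in 6 lists, namely RPL1B of 54 listed probes for cytosolic ribosomal proteins, HTS1 of 19 for translation factors and tRNA synthetases and GLK1 of 15 for glycolysis. The others are MDH3 of 26 for the TCA cycle and respiratory chain, TFB4 of 65 for chromatin and transcription, and CCT6 of 20 for chaperones. The other 15 lists hold 0 members, among them ribosome biogenesis (47 listed probes), secretion and glycosylation (58), cell cycle and DNA replication (41) and the PHO regulon (11). With the member itself counted, the glycolysis list had 7 probes called lower and 3 higher at 23 h in WT, with a median late change of -0.90 against -0.21 over all probes, and 6 lower and 4 higher in PHO84c, with -0.39 against -0.19. The TCA and respiratory list had 8 lower and 4 higher in each strain, and the ribosomal list 11 lower and 10 higher in WT and 14 and 12 in PHO84c. Translation factors and tRNA synthetases were even, with 4 lower and 4 higher in each strain. The balance was the other way in the chromatin and transcription list, with 9 lower and 17 higher in WT and 10 and 20 in PHO84c, and in the chaperone list, with 3 and 6 in WT and 4 and 7 in PHO84c. Over all probes 23.8% were called lower and 20.8% higher in WT, and 27.5% and 23.2% in PHO84c. The median early mean of the 6 lists in WT lay between -0.11 and 0.08. The remaining 13 named members are in no list.

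The course within the early phase was compared next. The rule used the mean of 1, 5 and 8 h and not their differences, but the same values chose the members. These differences are therefore conditioned by that choice. Over all probes with 12 values the SD of the change was 0.469 at 1 h and 0.375 at 8 h in WT. In PHO84c it was 0.442 and 0.326. The part of this unequal spread in the members' peak times and falls was not tested. In WT the 1 h value was the highest of the 3 in 53 members, the 5 h value in 21 and the 8 h value in 19. In PHO84c the counts were 37, 22 and 34. The 164 other probes that were early high in both strains peaked at 1, 5 and 8 h in 55.5%, 24.4% and 20.1% of cases in WT, close to the members' 57%, 22.6% and 20.4%. In PHO84c their shares were 40.2%, 30.5% and 29.3%, beside 39.8%, 23.7% and 36.6% of the members. The difference between these sets was not tested. In 54 members the highest value was at the same time in both strains. No share over other probes was computed for that count, so nothing is read from it. From 1 h to 8 h the members' median difference was -0.07 in WT and -0.03 in PHO84c, against -0.01 and 0.02 over all probes tested. In WT, 0 members were called (background 1.96% of 6189 probes), with 24 at an unadjusted p under 0.05 (25.8%, against 24% of all probes), and 4 passed the adjusted p alone (background 7.3%). Of these, the MDL2 probe rose from 0.10 to 0.98, a difference of 0.89 ± 0.192 (SE, limma adjusted p = 0.0384), and the unnamed probe 772 fell from 1.01 to 0.30 (-0.71 ± 0.0962, limma adjusted p = 0.007). In PHO84c, 2 members were called lower at 8 h than at 1 h and 0 higher (background 1.55% lower, 0.556% higher), and 13 passed the adjusted p alone (background 20.2%), 9 of them downward (background 10.7%).

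The larger of these falls was at probe 6660, which read 0.07, -0.06, 0.13 and -0.13 at 0 h in PHO84c, then 2.23, 0.90, 0.98 and -1.53. The 1 h value stood apart from the others, and the 8 h minus 1 h difference was -1.26 ± 0.144 (SE, limma adjusted p = 0.00331). The other call was probe 3982 (-1.03 ± 0.265, limma adjusted p = 0.0377). It was lost when any single Cy3 replicate at 0 h of either strain, or PHO84c replicate 3 or 4, was left out (limma adjusted p = 0.0596 to 0.0639). It was also lost without the array as a block (limma adjusted p = 0.0737), with the replicate number as a block (0.102) and under quantile normalization (adjusted p of 1), which also ended the call of probe 6660. Among named members, CCT6 fell by 0.78 ± 0.0940 (limma adjusted p = 0.00374), RPL1B by 0.65 ± 0.108 (limma adjusted p = 0.0101), and BSD2 rose by 0.44 ± 0.116 (limma adjusted p = 0.0392), each under 2-fold. The largest rise of a member in PHO84c was at the unnamed probe 7805, from 0.28 to 1.25 (0.97 ± 0.105, SE), just under 2-fold. In WT that probe went from 0.80 to 1.27. Across the 93 members the 8 h minus 1 h differences of the strains correlated at Pearson r = 0.215 and Spearman rho = 0.111. Over all 5787 probes the values were 0.271 and 0.196. For 5 h minus 1 h the values were 0.517 and 0.491 in the members and 0.327 and 0.286 over all probes. The strains share no sample in these differences but share the array block number at each time.

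The size of the early change was compared between strains, with the WT change subtracted from that of PHO84c. The floor on the early mean in both strains left out probes that were high in 1 strain only (548 met it in WT, 547 in PHO84c and 257 in both), so these differences are conditioned by the choice of members, at each early time as well. For the early mean, 0 of 93 members were called by limma (background 0.582% of 6014 probes), and 19 had an unadjusted p under 0.05 (20.4%, against 21.7% of all probes), with a lowest adjusted p of 0.0591. Nothing on the likeness of the strains is read from that count. The differences of the early mean ran from -0.78 to 0.45, with a median of -0.10 and standard errors of 0.0821 to 0.262. Of the 93, 60 were below 0. At 5 h and 8 h, 0 members were called by limma (background 0.684% and 0.752%), with 13 (14%) and 7 (7.53%) at an unadjusted p under 0.05, against 17.1% and 11.5% of all probes. At 8 h, 72 of 93 members were below 0 (median -0.10), where 48.6% of all 6117 probes were above 0, and at 5 h 44 were below 0 (median 0.002). The SD over all probes with 12 values at 8 h was 0.375 in WT and 0.326 in PHO84c; the part of this narrower spread in the members' lower values was not tested.

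At 1 h, 63 of 93 members had the smaller change in PHO84c (median difference -0.16), where 47.6% of all probes were above 0. Limma called 1 member (background 2.4% of 6161 probes), the unnamed probe 10387. It read -0.17, 0.08, 0.06 and -0.05 at 0 h in WT, then 1.41, 1.18, 1.05 and -1.42. The PHO84c samples gave -0.01, 0.01, -0.01 and 0.01, then 0.29, 0.49, 0.68 and -1.61. The strains were furthest apart at 1 h and close at 23 h, and the 1 h difference was -1.17 ± 0.258 (SE, limma adjusted p = 0.0346). This call was lost without WT replicate 1 at 0 h (-0.998, just under 2-fold) and without any single PHO84c replicate at 0 h (limma adjusted p = 0.0582 to 0.0759). It was also lost with the replicate number as a block (limma adjusted p = 0.0826) and under quantile normalization (adjusted p of 1).

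On the adjusted p alone, 15 members differed at 1 h (16.1%, background 11.1%), 12 lower and 3 higher in PHO84c, against 4.8% and 6.33% of all probes. Those with a listed name were CCT6, RPL1B and AGP2. CCT6 changed by 0.57 in WT and 1.35 in PHO84c, a difference of 0.78 ± 0.115 (SE, limma adjusted p = 0.0113). RPL1B changed by 0.68 and 1.26, a difference of 0.59 ± 0.132 (limma adjusted p = 0.0364). AGP2 went the other way. Its probe read -0.06, 0.03, -0.06 and 0.06 at 0 h in WT, then 1.15, 0.60, 0.67 and -1.54, and in PHO84c 0.10, -0.11, 0.10 and -0.10, then 0.40, 0.26, 0.70 and -1.72. The difference at 1 h was -0.77 ± 0.158 (SE, limma adjusted p = 0.0292), and by 8 h the changes stood at 0.68 and 0.70. With 1 array per strain at 1 h, strain and array cannot be told apart in these differences.

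At 23 h the rule bounded the strain difference, so it is described with no test. The PHO84c change was the lower one in 70 of 93 members (75.3%), with a median difference of -0.35 and a range of -1.20 to 0.90, and 54 members lay within 0.5 of equality. Over all 5787 probes with 12 values 50.5% were lower in PHO84c, with a median difference of -0.005, and 3683 lay within 0.5 of equality. Nothing on the likeness of the strains is read from the members' 54, since the rule bounded their difference. The SD of the 23 h changes over all probes was 1.55 in WT and 1.69 in PHO84c, and the part of this wider spread in the members' deeper values was not tested. HTS1 (-1.20) had the largest difference of a named member and SPR1 (0.90) the only one of a named member above 0.5 upward. Across the members the late changes of the strains correlated at Pearson r = 0.731, the early means at 0.404. The early mean and the late change of a strain correlated at 0.0576 in WT and 0.0167 in PHO84c across the 93 probes. The rule cuts off both measures, so nothing is read from these values on the relation of early height and late depth. These correlations are descriptions over probes that the rule chose and that share 0 h samples within a strain.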

How the data were processed

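The members and lists were chosen with earlier results of these data known. Per the labels' protocols and the series' design text, an Epicentre MasterPure kit gave the RNA, an Agilent Low Input Quick Amp kit the labelled product, and SpotReader read 2 scans per sample; neither normalization nor background correction is stated in the labels used here. The authors' deposited values were read as log2 ratios: the linear values of each 0 h pair of 1 strain and dye averaged 1 within 0.05 at 97.82% to 99.97% of probes, so each 0 h sample appears relative to the pair of its strain and dye. That later samples are relative to their strain's Cy3 pair is assumed. No column lay outside the 16 samples.

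limma 3.58.1 in R 4.3.3 (lmFit, eBayes) fitted the 16 samples together with 1 mean for each strain at each time, 1 dye term for each strain and arrays as random blocks (correlation 0.761, 4 residual degrees of freedom). All 93 members had 16 values, so the fit dropped no sample for them. Calls needed 2-fold and a Benjamini-Hochberg adjusted p, taken over all probes, under 0.05; the adjusted p alone was an alternative. Alternatives covered centring, quantile normalization, the dye term, the array block, missing values, thresholds, a replicate block and left-out 0 h samples. Names come from the platform annotation, and all 19 were found in the R64 gene table. With at most 30 named members, each is named; unnamed probes are limited to 2 each way per comparison. Promoter motifs were planned and not analysed here. No sequence is shown.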

Additional observations from a re-analysis of the deposited data

Results flagged for a closer look

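Probe 10387 was flagged because its change at 1 h differed between the strains by the test of the difference itself, at -1.17 on the log2 scale (PHO84c minus WT). It was the only call among the 93 members there (1.08%), below the 2.4% called over all 6161 probes. The call was lost with the replicate number as a block, under quantile normalization, and without WT replicate 1 or any single PHO84c replicate at 0 h. The members were chosen by early values of these samples.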

How the results depend on the processing

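The later times have 1 sample each, so no setting tests their own spread, and ratios without signal levels leave dim probes unmarked. The number of members was 93 and became 70 under median centring, all 70 of them shared with the 93. With a lower limit on the late change it was 66, and with all 4 samples at 0 h as reference 90 (89 shared). Quantile normalization, which gives every sample the same spread by construction, left 2 members (1 of them shared). The number was 56 with an early mean of at least 0.5, and 40 with the early limit at each time. Without a 0 h replicate it was 89 to 94. The 1 member called in the strain difference at 1 h became 0 under quantile normalization, 0 with the replicate block, 15 without the 2-fold limit, and 0 to 1 without a 0 h replicate. The 2 called in PHO84c from 1 to 8 h became 0 under quantile normalization, 1 without the array block, 1 with the replicate block (probe 3982 lost in both), 13 without the 2-fold limit, and 1 to 2 without a 0 h replicate; in WT 0 became 4 without the 2-fold limit. The strain differences of the early mean, at 5 h and at 8 h kept 0 called members under all settings run. No label pairs the 0 h samples of the strains. Same-numbered ones correlated at Pearson r -0.24, -0.21, -0.16 and -0.222 for replicates 1 to 4 and crossed ones (1 with 2, 3 with 4) at 0.177 to 0.248, but the samples of a pair mirror each other by construction, so these signs are not independent; the replicate block, with the array correlation held, changed no count other than those named.

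Median changes of the members kept their sign in every setting, which their choice by these values made likely, so nothing is read from it. Values are given where they moved by more than the SD of the 0 h medians. The scaling of the 0 h pairs keeps that SD small, so it does not measure the spread of a median from 1 array. Median centring gave 0.81 at 1 h and -1.40 at 23 h in WT. In PHO84c it gave 0.65 at 1 h, 0.60 at 8 h and -1.85 at 23 h. Quantile normalization gave 0.80, 0.69, 0.82 and -0.38 at 1, 5, 8 and 23 h in WT and 0.61, 0.70, 0.76 and -0.46 in PHO84c. All 4 samples at 0 h as reference gave 0.80 at 1 h in WT. The 0 h samples appear to average near 0 within each pair by their scaling, so that setting tests little. The median strain difference at 23 h became -0.36 with centring, -0.047 with quantile normalization and -0.35 with all 4 samples at 0 h, settings added after seeing the data. Left-out 0 h replicates, added likewise, gave WT medians of 0.80 to 0.83, 0.56 to 0.64, 0.71 to 0.75 and -1.60 to -1.58, PHO84c medians of 0.62 to 0.67, 0.57 to 0.61, 0.59 to 0.61 and -2.07 to -2.04, and a strain difference of -0.39 to -0.37.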
